A study of Homo sapiens with 6 samples.

Results

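The mitosis and G2 phase genes described here are 50 genes that carry a cell from the end of DNA replication through chromosome segregation and the separation of the daughter cells. They were chosen by symbol, as a list of mitotic cyclins, checkpoint, kinetochore, spindle and cytokinesis genes, and all 50 have a row among the 17929 genes of the deposited expression table. The study sequenced messenger RNA of human embryonic stem cells after short hairpin RNAs had lowered DDX18, a nucleolar RNA helicase, to ask what this protein does in keeping the cells in their identity, and 6 libraries were made. The knockdown libraries carry the hairpin shDDX18#1 or shDDX18#3, and the control libraries carry shLuc, a hairpin against luciferase, which human cells lack. Each of these 3 arms has 1 library of the established line H9 and 1 of the established line HES2. All cells were virally infected, were grown on irradiated mouse embryonic fibroblast feeders in serum replacement medium with bFGF, and were collected on day 4. Whether separate cultures were used within a line is not given in the labels, and a p-value here therefore measures spread among these 6 samples, which may be technical. With 1 library per arm and line, that spread also holds any difference in effect between the lines, except where the lines are compared. In the fit over both hairpins, it holds the difference between the hairpins too.

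Levels are given in CPM, reads per 1000000 of the library after the authors' scaling between libraries (TMM). The libraries hold between 2668179 and 4271741 reads, so that 1 read is worth between 0.224 and 0.408 CPM, and each of the 50 genes had at least 8 reads in every library. The targeted gene DDX18 stood at 19.2 CPM (shDDX18#1) and 47.3 CPM (shDDX18#3) against 153 CPM (shLuc) in H9, and at 39.3 CPM (shDDX18#1) and 60.4 CPM (shDDX18#3) against 161 CPM (shLuc) in HES2. DDX18 was thus below its control in every knockdown library, and lower with shDDX18#1 than with shDDX18#3 in both lines. All 10 stem cell marker genes listed for these lines, SOX2 and NANOG among them, were above 3 reads in every library, and 8 of the 10 fell in the knockdown (limma, adjusted p under 0.05, median log2 fold change -1.39), with 5 without HES2 shDDX18#1, 1 without H9 shLuc and 0 without HES2 shLuc.

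As background, passage through G2 and mitosis is driven by CDK1 bound to A- and B-type cyclins, with the polo and aurora kinases acting beside it, and it ends when the anaphase promoting complex marks securin and the cyclins for destruction. Most of these genes are transcribed late in the cell cycle. A MuvB complex binds an element in their promoters called CHR, with MYBL2 and FOXM1 when the genes are active and with p130 or p107 and E2F4 (the DREAM complex) when they are silent, and the factor NF-Y binds CCAAT boxes beside it. Embryonic stem cells divide quickly, and a large share of them is in S, G2 or M phase at any time.

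The 50 genes were lower in the knockdown libraries as a group. Their summed level was 2000 CPM (shDDX18#1) and 3558 CPM (shDDX18#3) against 5193 CPM (shLuc) in H9. In HES2 it was 2582 CPM (shDDX18#1) and 3555 CPM (shDDX18#3) against 4898 CPM (shLuc). The sums were therefore 38.5% and 68.5% of the control in H9, and 52.7% and 72.6% of the control in HES2, with shDDX18#1 the lower of the hairpins in each line. In bulk libraries such as these, fewer cells in G2 or mitosis and less of each message per cell cannot be told apart.

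**Figure D1:**
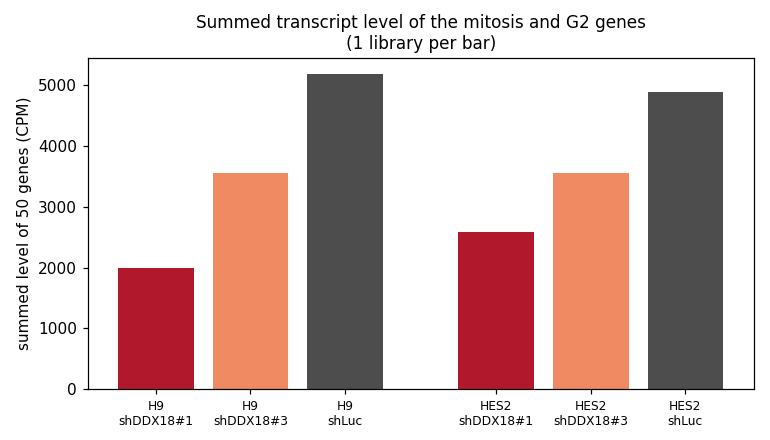
Summed level of the 50 mitosis and G2 phase genes in each library, in CPM, with the bars starting at 0 and the knockdown libraries left of the shLuc library within each cell line. The sums run from 2000 to 3558 CPM in the 4 knockdown libraries and are 4898 and 5193 CPM in the 2 shLuc libraries.

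Fitted across all genes with limma on log2(CPM + 1), with cell line as a block and Benjamini-Hochberg adjustment over the 17768 genes tested, 16 of the 50 genes fell in the knockdown and 0 rose, at an adjusted p under 0.05. Among all genes tested 6.26% fell and 9.6% rose, against 32% and 0% of the 50. The fitted log2 fold change, which is on this log2(CPM + 1) scale throughout, was below 0 for all 50 genes, with a median of -0.77, beside a median of -0.02 over all genes tested. At an unadjusted p under 0.05, 33 of the 50 were lower and 0 were higher, beside 2781 lower and 3101 higher among the 17768 genes tested. In 41 of the 50 genes each of the 4 knockdown libraries was below the shLuc library of its own line (27.9% of all genes), and in 37 every knockdown library was below both shLuc libraries (20.9% of all genes). The authors' deposited table calls 27 of the 50 lower at a false discovery rate under 0.05 (9.49% of all genes) and 0 higher (13.5% of all genes), and those 27 include all 16. That the fold change in that table is knockdown over shLuc was inferred from the library values. The count of 16 rests on both control libraries: it was 0 without either shLuc library, 1 without HES2 shDDX18#1, 18 without H9 shDDX18#1, 32 without H9 shDDX18#3 and 13 without HES2 shDDX18#3. It was 1 with limma without the intensity trend and 5 without the cell line block. The share of all genes that fell moved too, to 1.92% without the trend and 2.3% without the block. That share was 1.39% without HES2 shDDX18#1, 6.32% without H9 shDDX18#1, 9.19% without H9 shDDX18#3 and 2.79% without HES2 shDDX18#3. Without either shLuc library 1 control was left and that share was far below 6.26%, so few genes of any kind passed. The median log2 fold change of the 50 was then -0.66 without H9 shLuc and -0.94 without HES2 shLuc. Over all genes tested it was -0.03 and -0.01.

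**Figure D2:**
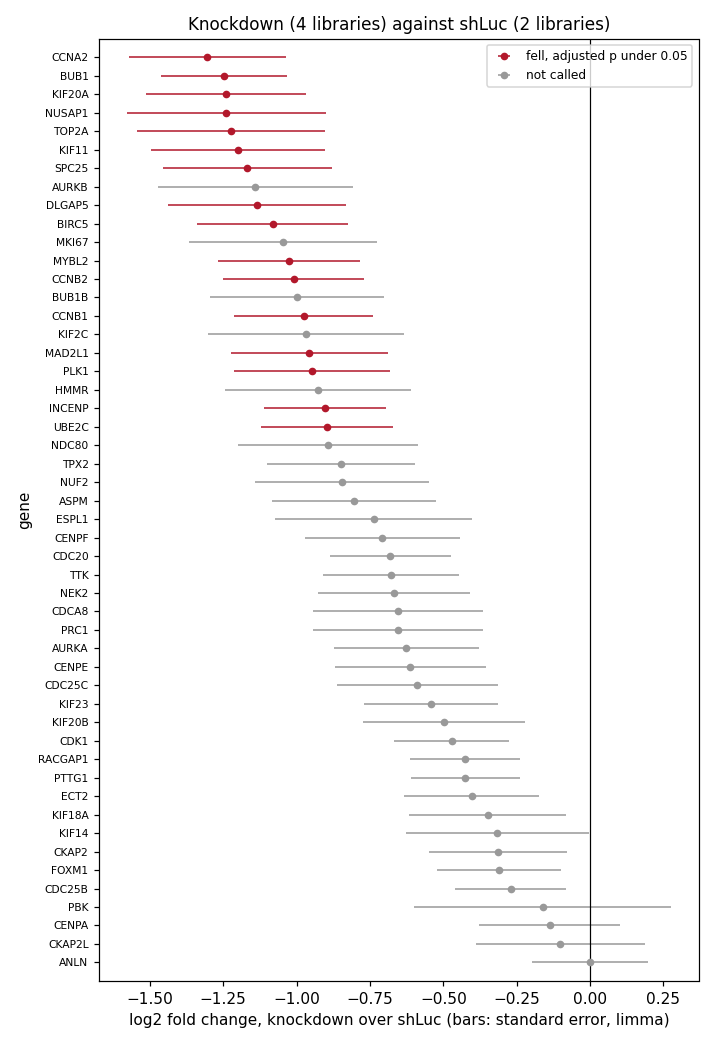
Log2 fold change on the log2(CPM + 1) scale of each of the 50 genes, knockdown against shLuc, with its standard error as the bar and the 16 genes called at an adjusted p under 0.05 marked by colour. The values run from -1.30 for CCNA2 to -0.00 for ANLN, with none above 0.

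The promoters of these genes share elements that the choice of the list did not use. RefSeq promoters on GRCh38.p14, from 250 bases before to 50 after the start of transcription, were on hand for 42 of the 50 genes. FOXM1, TTK, UBE2C, AURKA, PBK, BIRC5, TPX2 and RACGAP1 have no entry in the table. The CHR letters TTTGAA, on either strand, occur in 29 of the 42 promoters (69.0%) and in 9.86% of 11844 promoters, 1 per gene. Within 50 bases of the start, TTTGAA is in 24 of the 42 (57.1%) and in 2.71% of all promoters. The letters CCAAT, on either strand, occur in 32 of the 42 (76.2%) and in 35.8% of all. Both are in 25 of the 42 (59.5%, and 4.09% of all), and neither is in 6, which are MYBL2, KIF2C, CENPE, CKAP2, CDC25B and CDC25C. These counts take the first listed promoter of each gene, and 6 of the 42 genes have several. With any listed promoter counted, TTTGAA is in 30 of the 42 (13.8% of all genes) and CCAAT in 34 (42.2% of all genes). CDC25B and CDC25C then have CCAAT. Among the 14 genes with a promoter that fell, 9 have TTTGAA and 13 have CCAAT, against 20 and 19 of the 28 that did not pass the test. The median log2 fold change was -0.80 for the 29 genes with TTTGAA and -0.97 for the other 13, and this difference was not tested. A match is only letters in a window, and no binding was measured in these libraries. No variant of TTTGAA was searched for, so a promoter without these letters is not shown to lack the element.

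The 130 bases before the start are printed for 5 genes, chosen after their values were seen, to show how the elements lie in a B-type cyclin that fell, a kinase and a motor that fell, a cyclin that fell without TTTGAA, and a gene that did not pass the test. All are on the plus strand, read 5′ to 3′, and capitals mark CCAAT or its reverse complement ATTGG, and TTTGAA or its reverse complement TTCAAA. The promoters are CCNB2 at chr15:59105016-59105145, PLK1 at chr16:23678759-23678888, KIF11 at chr10:92593000-92593129, CCNB1 at chr5:69167020-69167149 and ANLN at chr7:36389732-36389861.
CCNB2: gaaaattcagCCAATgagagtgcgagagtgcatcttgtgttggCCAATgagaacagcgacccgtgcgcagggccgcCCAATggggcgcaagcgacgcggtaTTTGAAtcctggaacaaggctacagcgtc
PLK1: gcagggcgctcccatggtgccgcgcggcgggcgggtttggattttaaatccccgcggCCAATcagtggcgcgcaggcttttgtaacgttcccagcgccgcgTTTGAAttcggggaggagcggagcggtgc
KIF11: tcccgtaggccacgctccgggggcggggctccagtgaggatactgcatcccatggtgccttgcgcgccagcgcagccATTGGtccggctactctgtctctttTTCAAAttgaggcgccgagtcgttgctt
CCNB1: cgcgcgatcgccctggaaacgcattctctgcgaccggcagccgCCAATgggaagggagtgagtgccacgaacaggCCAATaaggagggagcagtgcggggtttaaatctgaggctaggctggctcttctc
ANLN: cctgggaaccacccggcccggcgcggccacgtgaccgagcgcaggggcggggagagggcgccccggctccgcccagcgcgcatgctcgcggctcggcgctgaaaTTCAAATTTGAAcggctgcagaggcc

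Counted from the start, whose preceding base is -1, CCNB2 has CCAAT beginning at -120, -87 and -54, spaced 33 bases apart, and TTTGAA at -29. PLK1 has TTTGAA at the same -29 and 1 CCAAT at -73. KIF11 has TTCAAA at -28 and ATTGG at -53. CCNB1 has CCAAT at -87 and -55, 32 bases apart, and no TTTGAA. ANLN, whose level hardly differed between the groups, has TTCAAA at -26 followed directly by TTTGAA at -20, and no CCAAT in this stretch.

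**Figure D3:**
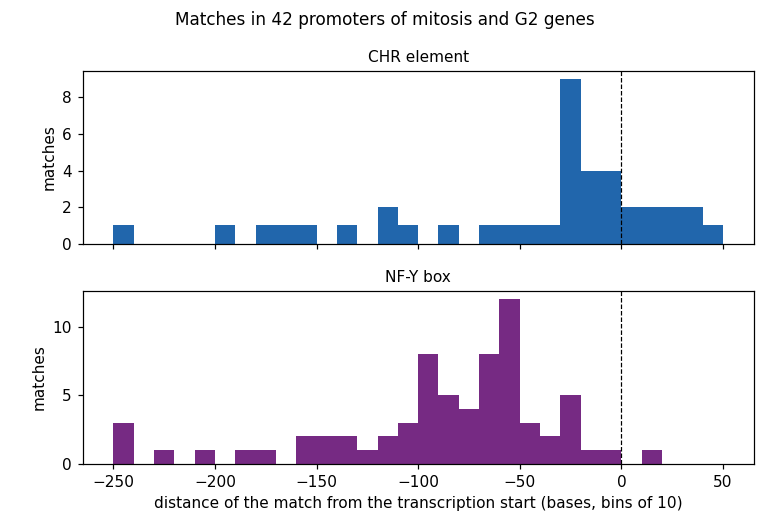
Number of TTTGAA matches (CHR element, upper panel) and CCAAT matches (NF-Y box, lower panel) on either strand in the 42 promoters of mitosis and G2 phase genes, by distance in bases from the start of transcription (dashed line). TTTGAA lies within 50 bases of the start in 24 of the 42 promoters.

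Of the 6 genes of mitotic entry, 3 fell, and these are the 3 cyclins. CCNA2, the cyclin of S and G2 phase, stood at 45.7 CPM (shDDX18#1) and 85.6 CPM (shDDX18#3) against 181 CPM (shLuc) in H9, and at 59.9 CPM (shDDX18#1) and 86.6 CPM (shDDX18#3) against 155 CPM (shLuc) in HES2. All 4 knockdown libraries were below both controls, and CCNA2 had the largest fall of the 50, with a log2 fold change of -1.30 (SE 0.27, limma adjusted p = 0.0185). CCNB2, a B-type cyclin that activates CDK1, stood at 24.1 and 38.9 CPM against 77.5 CPM in H9 (shDDX18#1 and shDDX18#3 against shLuc) and at 40.9 and 51.8 CPM against 75.8 CPM in HES2. Its groups did not overlap either, and it fell by 1.01 on the log2 scale (SE 0.24, limma adjusted p = 0.0290). CCNB1, the main mitotic cyclin, averaged 106 ± 26.1 CPM in the knockdown libraries and 206 ± 29.6 CPM in the shLuc libraries (SD, n = 4 and n = 2), a log2 fold change of -0.98 (limma adjusted p = 0.0315). CDK1 itself, the kinase these cyclins switch on, averaged 64.9 ± 12.4 CPM and 89.7 ± 13.3 CPM in the same groups, with a log2 fold change of -0.47 that did not pass the test (adjusted p = 0.135). The CDC25 phosphatases, which remove the inhibitory phosphates from CDK1, did not pass it either, with -0.59 for CDC25C and -0.27 for CDC25B.

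The transcription factors of the late cell cycle differed from each other in level. MYBL2, the MuvB partner also called B-Myb, stood at 71.9 CPM (shDDX18#1) and 123 CPM (shDDX18#3) against 234 CPM (shLuc) in H9, and at 103 CPM (shDDX18#1) and 132 CPM (shDDX18#3) against 197 CPM (shLuc) in HES2. It was below both controls in all 4 knockdown libraries and fell by 1.03 on the log2 scale (SE 0.24, limma adjusted p = 0.0278). FOXM1 stood at 93.1 CPM (shDDX18#1) and 141 CPM (shDDX18#3) against 148 CPM (shLuc) in H9, and at 75.9 CPM (shDDX18#1) and 108 CPM (shDDX18#3) against 108 CPM (shLuc) in HES2. With shDDX18#3 FOXM1 was thus near its control in both lines, and over both hairpins its log2 fold change was -0.31 (SE 0.21, adjusted p = 0.341). With shDDX18#1 alone FOXM1 fell, with a log2 fold change of -0.58 (limma adjusted p = 0.0157). The difference between MYBL2 and FOXM1 in their changes was not tested, and 15.9% of the exon bases of FOXM1 are shared with ITFG2 on the opposite strand, which an unstranded library cannot separate.

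Of the 4 spindle checkpoint genes, which hold anaphase until every kinetochore is attached, 2 fell. The kinase BUB1 stood at 57.6 CPM (shDDX18#1) and 86.6 CPM (shDDX18#3) against 169 CPM (shLuc) in H9, and at 69.2 CPM (shDDX18#1) and 102 CPM (shDDX18#3) against 201 CPM (shLuc) in HES2. With shDDX18#1 this is 34.2% of control in H9 and 34.4% in HES2, and with shDDX18#3 51.3% and 50.5%. BUB1 had the smallest adjusted p of the 50 genes, with a log2 fold change of -1.25 (SE 0.21, limma adjusted p = 0.0106). MAD2L1, which forms the inhibitor of the anaphase promoting complex, fell by 0.96 (adjusted p = 0.0461), with 35.1 and 68.1 CPM against 90.0 CPM in H9 (shDDX18#1 and shDDX18#3 against shLuc) and 41.5 and 59.0 CPM against 104 CPM in HES2. Its groups did not overlap. BUB1B, or BubR1, stood at 47.8 and 94.0 CPM against 143 CPM in H9 (shDDX18#1 and shDDX18#3 against shLuc) and at 53.7 and 92.7 CPM against 134 CPM in HES2, and its groups did not overlap. Over both hairpins BUB1B missed the threshold (log2 fold change -0.999, adjusted p = 0.0555), while with each hairpin alone it fell, with a log2 fold change of -1.43 for shDDX18#1 (limma adjusted p = 0.00044) and -0.56 for shDDX18#3 (adjusted p = 0.0455). The log2 fold change of the kinase TTK was -0.68 with an adjusted p = 0.083.

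Of the 4 genes that start anaphase, 1 fell. UBE2C, the ubiquitin-conjugating enzyme of the anaphase promoting complex, averaged 67.1 ± 16.4 CPM in the knockdown libraries and 123 ± 4.07 CPM in the shLuc libraries (SD, n = 4 and n = 2), and it fell by 0.90 on the log2 scale (limma adjusted p = 0.0341). By library UBE2C stood at 46.1 and 77.5 CPM against 120 CPM in H9 (shDDX18#1 and shDDX18#3 against shLuc) and at 62.4 and 82.4 CPM against 126 CPM in HES2, with all 4 knockdown values below both controls. CDC20, which brings substrates to that complex, stood at 74.3 and 111 CPM against 162 CPM in H9 (shDDX18#1 and shDDX18#3 against shLuc) and at 94.0 and 127 CPM against 159 CPM in HES2. The CDC20 groups did not overlap, but its log2 fold change of -0.68 missed the threshold (adjusted p = 0.0585). Separase, ESPL1, had a log2 fold change of -0.74, and securin, PTTG1, one of -0.42, and neither passed the test.

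Among 4 further mitotic kinases 1 fell. PLK1, the polo kinase, stood at 51.9 CPM (shDDX18#1) and 92.1 CPM (shDDX18#3) against 161 CPM (shLuc) in H9, and at 67.3 CPM (shDDX18#1) and 102 CPM (shDDX18#3) against 134 CPM (shLuc) in HES2. All 4 knockdown values were below both controls, with a log2 fold change of -0.95 (SE 0.27, limma adjusted p = 0.0474). AURKA, the centrosomal aurora kinase, and NEK2, which separates the centrosomes, had log2 fold changes of -0.63 and -0.67 and did not pass the test. NEK2 stood at 10.2 and 12.6 CPM against 25.2 CPM in H9 (shDDX18#1 and shDDX18#3 against shLuc) and at 15.1 and 18.1 CPM against 19.9 CPM in HES2, so that it was closer to its control in HES2. PBK was the lowest of the 50 genes in the controls and differed in direction between the lines: it stood at 3.27 and 6.16 CPM against 9.69 CPM in H9 (shDDX18#1 and shDDX18#3 against shLuc), and at 6.44 and 3.90 CPM against 2.91 CPM in HES2.

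The chromosomal passenger complex, which corrects wrong attachments and later marks the cell's midzone, had 2 of its 4 genes called. INCENP, its scaffold, averaged 44.1 ± 8.76 CPM in the knockdown libraries and 82.3 ± 5.40 CPM in the shLuc libraries (SD, n = 4 and n = 2), and fell by 0.90 on the log2 scale (limma adjusted p = 0.0264). By library INCENP stood at 34.3 and 52.5 CPM against 86.1 CPM in H9 (shDDX18#1 and shDDX18#3 against shLuc) and at 39.3 and 50.4 CPM against 78.5 CPM in HES2, and its groups did not overlap. BIRC5, or survivin, stood at 46.6 and 79.1 CPM against 135 CPM in H9 (shDDX18#1 and shDDX18#3 against shLuc) and at 42.8 and 70.2 CPM against 113 CPM in HES2, and fell by 1.08 (adjusted p = 0.0291). AURKB, its kinase, had a log2 fold change as large as theirs, -1.14, with non-overlapping groups, but a wider error (SE 0.33, adjusted p = 0.0525). It stood at 27.8 and 53.2 CPM against 86.7 CPM in H9 (shDDX18#1 and shDDX18#3 against shLuc) and at 22.5 and 47.9 CPM against 73.3 CPM in HES2. With each hairpin alone AURKB fell, with -1.63 for shDDX18#1 (SE 0.16, limma adjusted p = 0.000382) and -0.65 for shDDX18#3 (SE 0.16, adjusted p = 0.0396). The wider error over both hairpins includes the difference between them. CDCA8, or borealin, had -0.66 and did not pass the test, and in HES2 with shDDX18#3 it was slightly above its control, at 52.1 CPM against 50.3 CPM.

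Of the 6 centromere and kinetochore genes 1 fell. SPC25, a subunit of the NDC80 complex that grips microtubules, stood at 5.72 CPM (shDDX18#1) and 8.43 CPM (shDDX18#3) against 23.5 CPM (shLuc) in H9, and at 13.2 CPM (shDDX18#1) and 12.8 CPM (shDDX18#3) against 21.9 CPM (shLuc) in HES2. Every knockdown library was below both controls, with a log2 fold change of -1.17 (SE 0.29, limma adjusted p = 0.0326). Its partners NDC80 and NUF2 had log2 fold changes of -0.89 and -0.84 that did not pass the test, with groups that did not overlap. NDC80 stood at 13.5 and 25.9 CPM against 35.4 CPM in H9 (shDDX18#1 and shDDX18#3 against shLuc) and at 14.8 and 25.6 CPM against 37.3 CPM in HES2. CENPF and the motor CENPE, of the outer kinetochore, had -0.71 and -0.61. CENPA, the histone H3 variant of the centromere, hardly differed, with 10.4 ± 1.16 CPM in the knockdown libraries and 11.5 ± 0.514 CPM in the shLuc libraries (SD, n = 4 and n = 2; adjusted p = 0.723). By library CENPA stood at 9.39 and 12.0 CPM against 11.9 CPM in H9 (shDDX18#1 and shDDX18#3 against shLuc) and at 10.6 and 9.75 CPM against 11.2 CPM in HES2, and its groups overlapped.

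Of the 3 spindle motors 1 fell. KIF11, the motor that pushes the spindle poles apart, stood at 25.3 CPM (shDDX18#1) and 53.8 CPM (shDDX18#3) against 99.1 CPM (shLuc) in H9, and at 42.2 CPM (shDDX18#1) and 61.0 CPM (shDDX18#3) against 102 CPM (shLuc) in HES2. Its groups were well apart, and it fell by 1.20 on the log2 scale (SE 0.30, limma adjusted p = 0.0328). KIF2C, which takes microtubules apart, had -0.97 on the log2 scale with an adjusted p = 0.0851. It stood at 26.5 and 61.6 CPM against 90.0 CPM in H9 (shDDX18#1 and shDDX18#3 against shLuc) and at 38.3 and 64.6 CPM against 87.6 CPM in HES2, all 4 knockdown values below both controls. KIF18A, which limits their length, had -0.35.

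Of the 7 other spindle and microtubule proteins 2 fell. NUSAP1, which bundles microtubules, stood at 27.0 CPM (shDDX18#1) and 70.3 CPM (shDDX18#3) against 125 CPM (shLuc) in H9, and at 53.1 CPM (shDDX18#1) and 68.5 CPM (shDDX18#3) against 120 CPM (shLuc) in HES2. It fell by 1.24 on the log2 scale (SE 0.34, limma adjusted p = 0.0437), and 62.2% of its exon bases are shared with AC087721.2 on the same strand. DLGAP5, a stabiliser of spindle fibres, fell by 1.14 (adjusted p = 0.0407), with 30.2 and 59.3 CPM against 95.2 CPM in H9 (shDDX18#1 and shDDX18#3 against shLuc) and 32.8 and 58.8 CPM against 96.8 CPM in HES2. HMMR, TPX2, the activator of AURKA, and the pole protein ASPM had log2 fold changes of -0.93, -0.85 and -0.80 that did not pass the test, all with non-overlapping groups. CKAP2 and CKAP2L, microtubule proteins of mitosis, were among the genes that differed least, with -0.31 (SE 0.23) and -0.10 (SE 0.29). CKAP2L stood at 16.7 and 32.1 CPM against 22.7 CPM in H9 (shDDX18#1 and shDDX18#3 against shLuc) and at 15.1 and 21.2 CPM against 21.2 CPM in HES2, with the shDDX18#3 library above its control in H9. CKAP2 stood at 52.7 and 76.5 CPM against 108 CPM in H9 (shDDX18#1 and shDDX18#3 against shLuc) but at 102 and 114 CPM against 98.6 CPM in HES2.

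The 8 cytokinesis genes had the smallest median of the 11 role groups, -0.46, and 1 of them fell. KIF20A, the kinesin that carries the passenger complex to the midzone, stood at 28.2 CPM (shDDX18#1) and 50.6 CPM (shDDX18#3) against 116 CPM (shLuc) in H9, and at 40.2 CPM (shDDX18#1) and 55.4 CPM (shDDX18#3) against 88.5 CPM (shLuc) in HES2. Its groups did not overlap, and its log2 fold change was -1.24 (SE 0.27, limma adjusted p = 0.0230). The other 7 did not pass the test: KIF23 and RACGAP1, which form the centralspindlin complex, had -0.54 and -0.43, the midzone bundler PRC1 -0.65, the exchange factor ECT2 -0.40, and the kinesins KIF20B and KIF14 -0.50 and -0.32. KIF23 stood at 56.4 and 97.6 CPM against 108 CPM in H9 (shDDX18#1 and shDDX18#3 against shLuc) and at 54.4 and 70.7 CPM against 90.8 CPM in HES2, each below the control of its own line. ANLN, the scaffold of the contractile ring, stood at 105 CPM (shDDX18#1) and 156 CPM (shDDX18#3) against 143 CPM (shLuc) in H9, and at 110 CPM (shDDX18#1) and 139 CPM (shDDX18#3) against 111 CPM (shLuc) in HES2. Its groups overlapped, and it had the smallest change of the 50 (-0.00, SE 0.20, adjusted p = 0.999), with a sign that changed with the scaling and the libraries used.

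The last 2 genes are TOP2A, the topoisomerase that untangles sister chromatids, and MKI67, the coat of mitotic chromosomes that is read as Ki-67. TOP2A stood at 83.3 CPM (shDDX18#1) and 201 CPM (shDDX18#3) against 351 CPM (shLuc) in H9, and at 152 CPM (shDDX18#1) and 206 CPM (shDDX18#3) against 358 CPM (shLuc) in HES2, and it fell by 1.22 on the log2 scale (SE 0.32, limma adjusted p = 0.0388). MKI67 stood at 69.4 and 154 CPM against 269 CPM in H9 (shDDX18#1 and shDDX18#3 against shLuc) and at 150 and 224 CPM against 304 CPM in HES2. Its groups did not overlap, and its log2 fold change of -1.05 missed the threshold (SE 0.32, adjusted p = 0.0606).

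**Figure D4:**
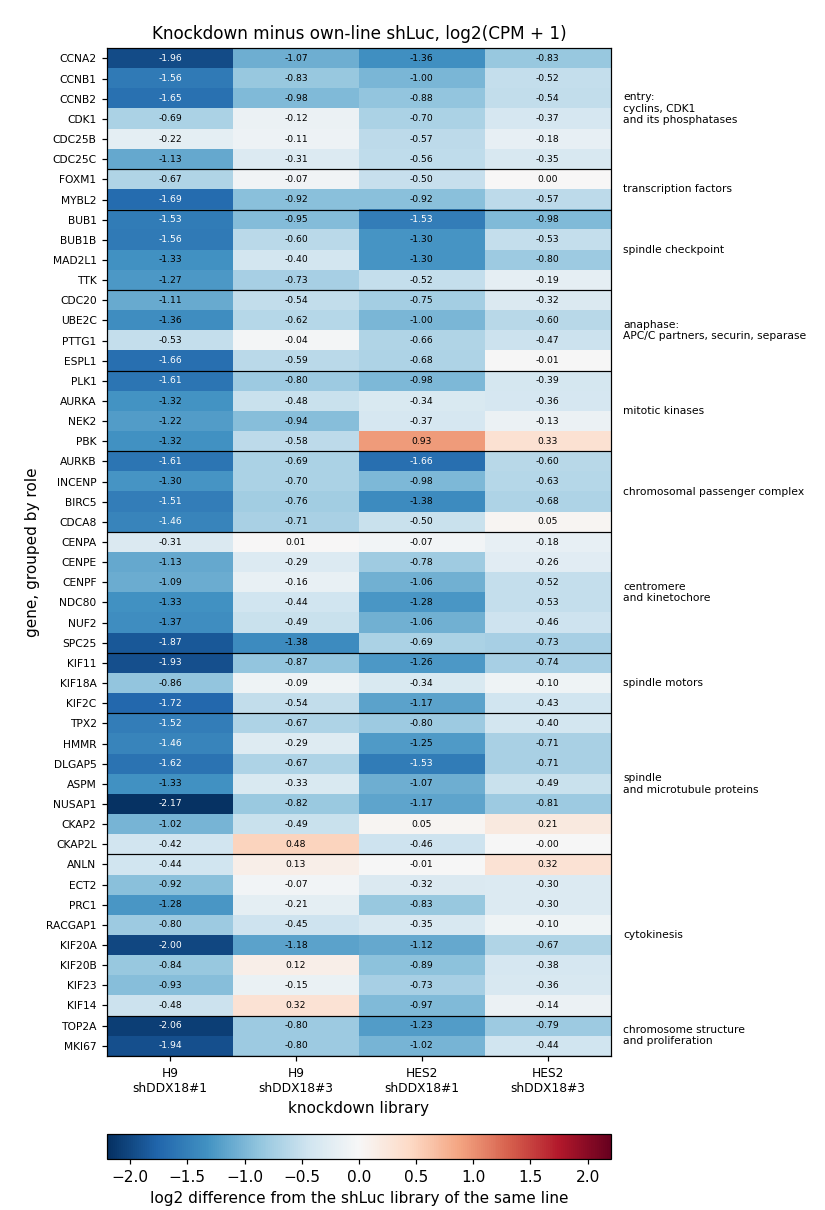
Log2 difference of each of the 50 genes from the shLuc library of its own line, on the log2(CPM + 1) scale, in the 4 knockdown libraries, with genes ordered by role. Values below 0 are lower in the knockdown library, and the numbers of genes below 0 are 50 and 45 in H9 (shDDX18#1 and shDDX18#3) and 48 and 45 in HES2.

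Abundance differed between the genes that passed the test and the others. The median level in the controls was 123 CPM for the 16 that fell and 70.0 CPM for the other 34, while the median standard error of the log2 fold change was 0.27 in each. Of those 34, 20 had a log2 fold change below -0.5. Exon bases are shared with another gene in 18 of the 50, mostly on the opposite strand (15 genes). The largest shares, in NUSAP1 (62.2%) and PRC1 (57.6%), are with same-strand genes. These overlaps come from an annotation on GRCh38, and the annotation behind the deposited levels was not compared. How shared reads were counted is not known here, so the levels of these genes are uncertain by an amount that was not measured. Per kilobase of exon, the highest levels in the controls were those of UBE2C (52.2 CPM per kilobase in the knockdown libraries and 95.5 in the shLuc libraries), CCNB1 (41.4 and 80.4), CDC20 (49.9 and 78.7) and MYBL2 (38.7 and 77.5), and the lowest was that of PBK (2.28 and 2.91).

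The hairpins differed in how many of these genes passed the test. With shDDX18#1 41 of the 50 fell and 0 rose (13.4% of all genes fell and 14.4% rose), with a median log2 fold change of -1.15. With shDDX18#3 13 fell and 0 rose (3.69% of all genes fell and 6.96% rose), with a median of -0.47. Both comparisons use the same shLuc libraries. The medians of the log2 differences from each line's own control were -1.33 in H9 and -0.88 in HES2 with shDDX18#1, and -0.54 in H9 and -0.42 in HES2 with shDDX18#3. In H9 37 of the 50 genes with shDDX18#1 and 3 with shDDX18#3 were below 50% of control, and in HES2 21 and 0. The share of all genes below that mark was not counted. Both counts depended on which libraries were used. Without H9 shDDX18#1 the median with shDDX18#1 was -0.86. The median with shDDX18#3 was -0.32 without H9 shLuc, -0.54 without H9 shDDX18#3 and -0.41 without HES2 shDDX18#3. The 13 became 0 with limma without the trend (0.174% of all genes fell) or without the block (0.0113%). It became 5 with DESeq2 (1.8% of all genes) and 16 with edgeR (4.62%).

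Set directly against each other, shDDX18#3 was higher than shDDX18#1 in all 50 genes in H9 and in 46 in HES2, and in 46 in both lines (33.6% of all genes). The exceptions, in HES2, were AURKA, CENPA, SPC25 and PBK. The median log2 difference was 0.63, beside 0.02 over all genes. None of the 50 passed the limma test of this difference after adjustment, nor did any other of the 17768 genes, and edgeR and DESeq2 called 0 of the 50 too. At an unadjusted p under 0.05, 37 of the 50 were higher with shDDX18#3 and 0 lower, beside 1389 higher and 1147 lower among all 17768. The smallest p-values were those of AURKB, with a log2 difference of 0.98 (SE 0.16, adjusted p = 0.0889), and BUB1B, with 0.87 (SE 0.15, adjusted p = 0.0892), each higher with shDDX18#3 in both lines. Without either shLuc library, which enters this comparison only through the estimate of spread, 26 of the 50 passed. Among all genes tested, 399 of 17489 were then higher with shDDX18#3 and 416 lower without H9 shLuc. Without HES2 shLuc 395 of 17404 were higher and 422 lower.

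**Figure D5:**
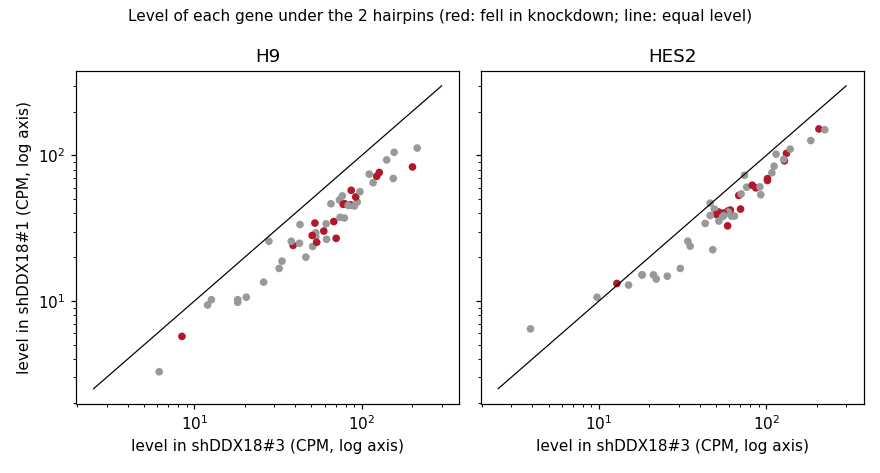
Level of each of the 50 genes with shDDX18#1 (vertical axis) against shDDX18#3 (horizontal axis), in CPM on log axes, in H9 and in HES2, with the 16 genes that fell in the knockdown in red and the line marking equal levels. All 50 points lie below the line in H9 and 46 of the 50 in HES2, lower with shDDX18#1 than with shDDX18#3.

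The lines were also set against each other. The mean of both hairpins' log2 differences from control had a median over the 50 genes of -0.66 in HES2 and -0.94 in H9, and 38 of the 50 were lower in H9. Tested as an interaction of knockdown and line, 0 of the 50 differed by limma, edgeR or DESeq2 after adjustment and 0 at an unadjusted p under 0.05 by limma. At that unadjusted mark, the knockdown effect was higher in HES2 for 342 of all genes tested and lower for 446. The median difference of HES2 minus H9 was 0.23. It was -0.17 without H9 shDDX18#1 and 0.61 without H9 shDDX18#3. Those fits set a single hairpin in H9 against both in HES2, so that the hairpins and the lines are mixed in them. By hairpin, the median log2 difference from control with shDDX18#1 was -1.33 in H9 and -0.88 in HES2. With shDDX18#3 it was -0.54 in H9 and -0.42 in HES2. The log2 differences in the lines had a Pearson correlation of 0.53 across the 50 genes and 0.65 across all genes tested, as a description of genes that share their libraries.

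Other genes of mitosis, outside the 50, were counted in the same fit, in which 6.26% of all genes fell. Of 16 condensin and cohesin genes, which fold and hold the chromatids, 4 fell and 0 rose (median log2 fold change -0.58), among them NCAPD2 (-0.86), CDCA5, or sororin (-0.94), and NCAPD3 (-0.62). Of 17 genes of the anaphase promoting complex and its partners 4 fell and 0 rose (median -0.33), and those with the smallest p were its inhibitor FBXO5 (-1.12), its chain-building enzyme UBE2S (-0.80) and the subunit ANAPC7 (-0.71). Of 30 further kinetochore and centromere genes 5 fell and 0 rose (median -0.47), with CENPH at -1.59 and BUB3 at -0.57. Of 22 further spindle and centrosome genes 5 fell and 0 rose (median -0.61), with the chromosome motor KIF22 at -1.002, the augmin subunit HAUS4 at -1.23 and TACC3 at -0.82. In these 4 lists the counts were 0 without either shLuc library, 0 to 2 without HES2 shDDX18#1 and 4 to 9 without H9 shDDX18#3, and without HES2 shDDX18#3 they were 1, 2, 2 and 3 in the order given.

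Of 11 genes that control mitotic entry 2 fell and 0 rose (median -0.72), with 0 without HES2 shLuc, 1 without H9 shLuc or without HES2 shDDX18#1, and 5 without H9 shDDX18#3. The 2 were the checkpoint kinase CHEK2 (-1.65, limma adjusted p = 0.00274) and the phosphatase CDC25A (-1.50, adjusted p = 0.0184). Of the 12 genes of the MuvB and DREAM complexes, which act on these promoters, 0 passed in either direction by limma, edgeR or DESeq2, 4 were lower and 0 higher at an unadjusted p under 0.05 by limma, and the lowest was RBL1, or p107, at -0.82 (adjusted p = 0.0758). In the other direction, 5 of 6 genes listed for cell cycle arrest, which are not particular to G2, rose with a median of 2.03 (9.6% of all genes rose). Fewer of the 6 passed without HES2 shLuc, where their median was 1.94. BTG2, an antiproliferative p53 target, stood at 199 and 218 CPM against 38.8 CPM in H9 (shDDX18#1 and shDDX18#3 against shLuc) and at 195 and 136 CPM against 22.1 CPM in HES2, a log2 fold change of 2.61 (SE 0.19, adjusted p = 0.000998). GADD45A, which inhibits CDK1 with cyclin B, rose by 1.98 (adjusted p = 0.00171), and CDKN1A, the inhibitor p21, by 3.08 (adjusted p = 0.00313). Every knockdown library was above both controls for each of these 3 genes.

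Genes of S phase moved with the mitotic ones. Of 40 replication genes 23 fell and 0 rose, with a median of -1.05 (0 without either shLuc library and 1 without HES2 shDDX18#1), among them the primase subunit PRIM1 (-1.28) and the helicase subunits MCM5 (-1.57) and MCM6 (-1.41). Their summed level was 1730 CPM (shDDX18#1) and 3192 CPM (shDDX18#3) against 5431 CPM (shLuc) in H9, and 2587 CPM (shDDX18#1) and 3357 CPM (shDDX18#3) against 5310 CPM (shLuc) in HES2. That is 31.9% and 58.8% of control in H9 and 48.7% and 63.2% in HES2, below the share left of the mitotic genes in every knockdown library. The difference between the lists was not tested.

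Markers of other cells moved with the knockdown too. Of 20 fibroblast and feeder marker genes 12 rose and 0 fell, with a median of 2.11 (7 rose without HES2 shLuc). Among all genes tested 9.6% rose. Of the 8 markers that did not pass the test, THY1 (-0.50) and S100A4 (-0.24) had log2 fold changes below 0. Below the control of their own line were 0 and 2 of the 20 in H9 (shDDX18#1 and shDDX18#3) and 2 and 5 in HES2. Together the 20 genes held 4.75% and 1.98% of all reads against 0.480% in H9 (shDDX18#1 and shDDX18#3 against shLuc), and 0.834% and 0.696% against 0.195% in HES2. ACTA2, smooth muscle actin, stood at 209 and 281 CPM against 20.2 CPM in H9 (shDDX18#1 and shDDX18#3 against shLuc) and at 80.8 and 102 CPM against 2.68 CPM in HES2. COL1A1, the main fibroblast collagen, stood at 18386 and 6175 CPM against 687 CPM in H9 and at 1124 and 749 CPM against 59.5 CPM in HES2, in the same order. Both rose, with every knockdown library above the control of its own line, and so did COL5A1 (log2 fold change 3.20). DCN and FAP, further fibroblast genes, did not pass the test. DCN stood at 44.9 and 14.3 CPM against 5.54 CPM in H9 (shDDX18#1 and shDDX18#3 against shLuc) and at 0.965 and 0 CPM against 0 CPM in HES2. FAP stood at 30.6 and 12.3 CPM against 0.831 CPM in H9 and at 0.322 and 0 CPM against 0 CPM in HES2, so that both were at or near 0 in the HES2 libraries. The cells grew on mouse feeders, and whether reads of mouse RNA were counted in these human genes was not tested. H9 shDDX18#1, the library with the largest fibroblast share, also had the lowest sum of mitosis and G2 phase genes. In both lines the fibroblast share was highest with shDDX18#1 and lowest with shLuc. The sum of mitosis and G2 phase genes ran in the opposite order in both lines. The part of these markers in the other results was not tested.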

How the data were processed

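Per the submitters' processing notes, Bowtie2 2.3.4.3, SAMtools 1.9, HTSeq 0.11.2, edgeR 3.26.8 and hg19 were used, with no roles given, on TruSeq RNA libraries, which do not keep strand per the kit named in the labels. The authors deposited 1 table with a normalized signal per library, which proved to be CPM of a TMM-scaled library: 100% of values were whole reads within 0.001. It also holds the authors' log2 fold change and log2 mean abundance, a likelihood ratio score and the authors' p-value and false discovery rate. The score and the mean abundance were not used here. The authors' design and the direction of their fold change are not given in the sources used here, and the direction was inferred from the library values.

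Genes that reached 1 CPM in 2 or more libraries entered the test, as log2(CPM + 1), in limma 3.58.1 (trended prior) in R 4.3.3. Recovered reads were also fitted with edgeR 4.0.16 and DESeq2 1.42.0. The scripts were tested on simulated data. Cell line was the block, since same-numbered libraries come from the same line: within-line deviations from the group means correlated at 0.36, 0.45 and 0.65 between arms. Also tried were a pseudocount of 0.25 or 4, a filter of 5 CPM or none, 3 other scalings, no trend and leaving out each library. Promoters came from RefSeq on GRCh38.p14 (the first listed for each gene) and exon lengths and overlaps from an annotation on GRCh38.

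The genes, lists and tests were chosen with earlier results of these data known, so no count is independent support. Values per library are given for up to 2 genes of each role with the smallest p, the 3 largest and the 3 smallest falls, and the 2 smallest p between hairpins and between lines. Of each further list, up to 3 genes with the smallest p are named, mostly by fold change alone. DCN, FAP, THY1 and S100A4 were added after their values were seen. The value of 1 gene that this rule names is not reported here. Other members are named with their values.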

Additional observations from a re-analysis of the deposited data

Results flagged for a closer look

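For 2 of the 50 genes both knockdown libraries were below the control in H9 and both were above it in HES2. The knockdown effect on PBK, on the log2(CPM + 1) scale, was higher in HES2 than in H9 by 1.58 (unadjusted p = 0.0674, limma adjusted p = 0.9998), at levels between 2.91 and 9.69 CPM. That on CKAP2 was higher in HES2 by 0.888 (unadjusted p = 0.0535, limma adjusted p = 0.9998). Neither difference passed the test.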

How the results depend on the processing

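The cell line block carried part of the calls: without it 5 of the 50 genes fell in place of 16 (2.3% of all genes), 0 in place of 13 with shDDX18#3 and 32 in place of 41 with shDDX18#1, and it changed no call between hairpins. Without the trend the counts for knockdown, shDDX18#3 and shDDX18#1 were 1, 0 and 28 (1.92%, 0.174% and 6.72% of all genes fell). In the same order DESeq2 gave 20, 5 and 32 (5.89%, 1.8% and 6.45% of all genes). With edgeR the counts were 16, 16 and 41 (6.69%, 4.62% and 13.4% of all genes). The remaining pseudocounts, filters and scalings gave 14 to 17 for the knockdown. Leaving out each library gave 0 to 32 genes that fell in the knockdown, a median log2 fold change between -0.96 and -0.57, 28 to 42 genes with shDDX18#1, 0 to 19 with shDDX18#3, and 0 to 26 higher with shDDX18#3 than with shDDX18#1. Of 493 comparisons for 29 named genes, 391 kept direction and side of the threshold, 75 lost the call, 15 gained it and 12 changed sign. ANLN was at 0.0191 with DESeq2 size factors, 0.0201 with edgeR and 0.0362 with DESeq2, and leaving out libraries moved ANLN between -0.16 and 0.16, CKAP2 between -0.76 and 0.13, CKAP2L between -0.31 and 0.0724 and PBK between -0.95 and 0.63. The cause was not tested. The interaction could not be fitted without a shLuc library. With 1 control library per line, each fold change rests on 2 controls, and the lowest count among the 50 genes, 8 reads, limits PBK most.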
